A study of Homo sapiens with 6 samples.

Results

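Collagen chain genes encode the polypeptide chains that assemble in threes into the triple helices of collagen. A gene was taken as a member when its row had an Ensembl identifier, at least 1 Gene Ontology term and a symbol made of COL, a type number, the letter A and a chain number. By this rule 39 of the 60780 rows were members, of which 11 encode fibrillar chains, 9 network-forming chains, 7 chains of fibril-associated collagens with interrupted triple helices (FACIT) and 12 other chains. The 12 other chains are 4 of the beaded-filament type VI, 1 of anchoring fibrils (COL7A1), 3 transmembrane chains, 2 multiplexins and 2 remaining chains. A further 5 genes with such a symbol carried no Gene Ontology term and had at most 1 count in any library, so leaving them out removed almost no reads.

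The RNA came from LX-2, a human line of hepatic stellate cells, kept for 24 h in medium taken from HCT116, a human colorectal carcinoma line. In the control group the HCT116 cells carried the empty vector (Vector-CM, n = 3), and in the other group they overexpressed FGFBP1, a secreted protein that binds fibroblast growth factors (FGFBP1-CM, n = 3). All cells were kept in DMEM with 10% fetal bovine serum, and both groups received medium from the same tumor line, so that no library was of LX-2 cells without conditioned medium. One stellate line and one tumor line were used. Nothing in the labels says that the 3 libraries of a group came from separate cultures, so p-values measure the spread between these libraries, which may be technical. The study asked how FGFBP1 from tumor cells acts on stellate cells, and the comparison here asks whether collagen chain transcripts differed between the media.

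Hepatic stellate cells store vitamin A in the healthy liver, and in injury and around metastases they turn into matrix-producing cells that are a main source of fibrillar collagen in scar tissue. Each chain carries long repeats of the triplet Gly-X-Y, because only glycine is small enough to sit at the center of the helix. Fibrillar collagens form banded fibrils, type IV forms the network of basement membranes, type VI forms beaded microfibrils next to cells, and FACIT chains bind to the surface of fibrils.

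The coding sequences carry this repeat, and a single exon per gene is shown to make it visible. Glycine codons (GGN) are in capitals, 5′ to 3′ on the coding strand, from GENCODE release 29 (GRCh38), and these coordinates need not be those used for counting.
COL1A1, exon 7, chr17:50198161-50198205, minus strand: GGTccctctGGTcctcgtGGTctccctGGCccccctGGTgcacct
COL5A1, exon 15, chr9:134753850-134753903, plus strand: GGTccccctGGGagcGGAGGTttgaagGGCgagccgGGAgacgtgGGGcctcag
COL6A3, exon 23, chr2:237357338-237357391, minus strand: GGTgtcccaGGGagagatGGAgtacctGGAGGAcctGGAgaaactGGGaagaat
COL4A2, exon 36, chr13:110489711-110489785, plus strand: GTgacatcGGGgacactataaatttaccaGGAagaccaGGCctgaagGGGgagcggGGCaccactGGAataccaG
In the exons of COL1A1, COL5A1 and COL6A3 a glycine codon opens each triplet, with an extra one inside a triplet in COL5A1 and COL6A3. The COL4A2 exon begins and ends inside a codon, and in it the repeat is broken by a longer gap after the first whole glycine codon, the kind of interruption that gives type IV collagen its flexible network.

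Over whole coding sequences, the longest unbroken run of Gly-X-Y units was 216 to 343 units in the 11 fibrillar chains, with a median of 338. In the 9 network chains it was 38 to 66 units, in the 7 FACIT chains 32 to 113 and in the 12 other chains 23 to 87, so that these ranges overlapped. A median of 17 separate runs of at least 10 units was found in a network chain. The network chain COL8A1 had 6 such runs, however, and COL7A1 among the other chains had 18. Exons of exactly 54 bases, the length of 6 such units, were counted by length alone. They numbered at least 10 in each of the 11 fibrillar chains and in 4 of the 7 FACIT chains. No network chain or other chain had more than 5. The fibrillar chains were thus apart from all other members in the length of their longest run.

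**Figure D1:**
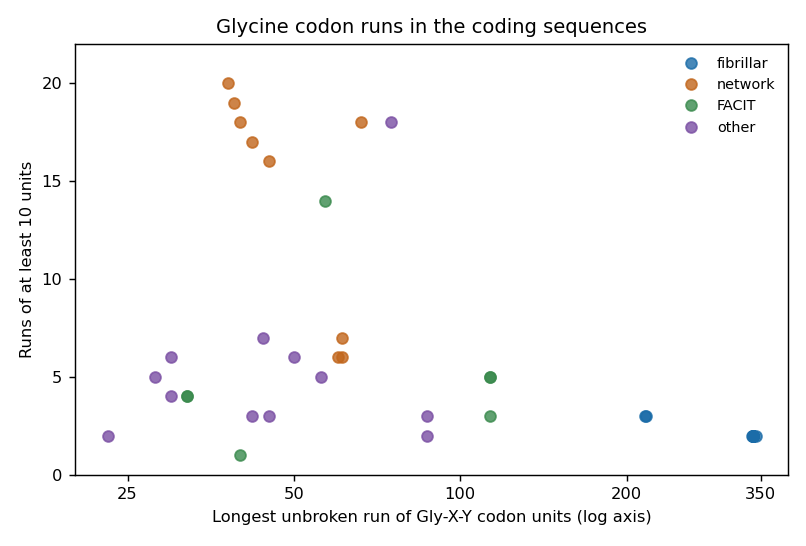
Longest unbroken run of Gly-X-Y codon units (x axis, number of units, log scale) against the number of runs of at least 10 units (y axis) for the 39 collagen chain genes, 1 point per gene, colored by family. The fibrillar chains lie at the right with 216 to 343 units, and the type IV chains lie at the top left with 16 to 20 runs.

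LX-2 cells expressed few of these genes at a high level. Levels are given as FPKM, fragments per kilobase of gene length, scaled to the mapped fragments of a library. Genes of different length can so be set side by side, but their order depends on the gene lengths the authors used. Of the 39 members, 16 had a mean of at least 1 FPKM over the 6 libraries. The 5 with the highest means held 64.0% of the summed FPKM of the members, and the top 10 held 88.2%. The members together took 0.236% to 0.250% of all counts in the Vector-CM libraries and 0.185% to 0.224% in the FGFBP1-CM libraries.

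COL6A2 had the highest mean, 35.4 ± 4.92 FPKM (SD, n = 6), followed by COL6A1 with 29.1 ± 4.47 and COL5A2 with 28.96 ± 2.35. The levels of COL6A1 and COL5A2 differed by less than their spread. COL4A2 stood at 24.9 ± 3.36 FPKM, COL1A1 at 16.6 ± 2.08, COL5A1 at 16.2 ± 3.90 and COL6A3 at 14.8 ± 3.47, and the last 3 could not be placed in an order within their spread. COL12A1 (7.70 ± 0.995), COL8A1 (7.09 ± 0.501), COL3A1 (5.34 ± 1.21), COL4A1 (5.26 ± 0.306), COL18A1 (5.01 ± 0.924) and COL4A5 (4.57 ± 0.516) formed a middle group. COL13A1 (2.05 ± 0.280), COL1A2 (2.03 ± 0.646) and COL27A1 (1.27 ± 0.148) completed the 16. In FPKM, COL6A2, COL6A1, COL5A2 and COL4A2 thus stood above the type I and type III chains that are the bulk collagens of liver scar. COL5A1 and COL6A3 stood with COL1A1, and COL4A1 and COL4A5 stood below it. In counts scaled to library size (CPM), which are not divided by gene length, COL4A2 stood above COL6A2. Their mean CPM was 541 against 213 in Vector-CM and 424 against 167 in FGFBP1-CM. The exons annotated in GENCODE release 29 cover 19293 bp for COL4A2 and 5386 bp for COL6A2.

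By family, the 12 other chains held 41.8% ± 1.47 of the summed FPKM (SD, n = 6), the fibrillar chains 33.8% ± 1.40, the network chains 20.3% ± 0.811 and the FACIT chains 4.12% ± 0.230. Between Vector-CM and FGFBP1-CM these shares were 42.8% ± 1.00 and 40.9% ± 1.29 for the other chains, and 33.4% ± 0.930 and 34.2% ± 1.88 for the fibrillar chains (SD, n = 3 each). The share of the network chains was 18.97%, 20.25% and 20.19% in the Vector-CM libraries and 20.38%, 20.36% and 21.53% in the FGFBP1-CM libraries, wholly higher in FGFBP1-CM, and that of the FACIT chains was 4.06% ± 0.177 and 4.18% ± 0.299. The shares were not tested. Their summed level was 239, 236 and 222 FPKM in the Vector-CM libraries and 179, 212 and 178 FPKM in the FGFBP1-CM libraries. Every FGFBP1-CM library was below every Vector-CM library. In RNA from a whole culture, fewer cells of a kind and less RNA per cell cannot be told apart.

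**Figure D2:**
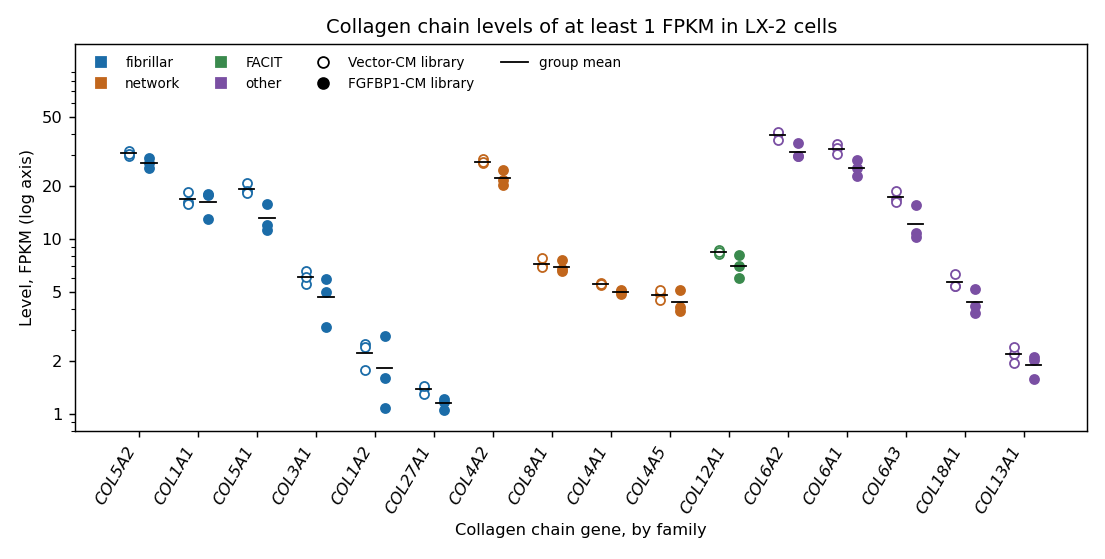
Levels of the 16 collagen chain genes with a mean of at least 1 FPKM (y axis, log scale) in the 3 Vector-CM libraries (open points) and the 3 FGFBP1-CM libraries (filled points), ordered by family and level, with bars at the group means. The libraries of the media are apart for COL5A1, COL4A2, COL6A1, COL6A2 and COL6A3 and overlap for COL1A1, COL1A2 and COL3A1.

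The 6 libraries held 14003780 to 18508113 counts. The 3 libraries of each group differed from each other by more than sampling noise, with chi-square values of 2.88 to 10.2 per degree of freedom, so none was a duplicate. The stellate identity was checked with 10 markers, of which 7 could be tested. At an unadjusted p under 0.05 (edgeR), 2 of them (VIM and NGFR) were lower in FGFBP1-CM, against 10.7% of all genes tested. The summed level of all 10 markers was 2570 to 2780 CPM in Vector-CM and 2041 to 2459 CPM in FGFBP1-CM, most of it from vimentin (VIM). PDGFRB had a mean of 3.38 FPKM, ACTA2 1.496 FPKM and DES, which encodes desmin, 0.0583 FPKM, and LRAT, the enzyme that stores vitamin A, had 0 counts in all libraries, which allows a level of up to 0.158 to 0.217 CPM (counts scaled to library size), the value of 3 counts. The summed markers of colorectal epithelium were 2.12 to 2.36 CPM in Vector-CM and 1.69 to 2.16 CPM in FGFBP1-CM, and 5 of the 9 had at most 3 counts in any library. Markers of endothelium (14.6 to 16.7 against 13.6 to 16.6 CPM) and macrophages (4.04 to 4.75 against 3.61 to 6.09 CPM) were at similar summed levels in the media. Hepatocyte markers were 39.1 to 40.6 CPM in Vector-CM and 17.8 to 27.6 CPM in FGFBP1-CM in sum, most of it from SERPINA1. Of these 11 markers 5 were tested and 3 fell (APOB, ALB and FGA), where 0.12% of all genes tested passed. Their differences were -3.59, -2.44 and -3.82 on the log2 scale (edgeR adjusted p = 0.00034, 0.00869 and 0.0249). These were low genes, with means of 3.37, 3.43 and 0.933 CPM in Vector-CM and 0.278, 0.611 and 0.0594 CPM in FGFBP1-CM. All 3 passed the filter on counts through the Vector-CM libraries, where they were higher. The 3 of 5 can therefore not be weighed against the 0.12%. APOA1, APOA2, TTR and HNF4A had at most 3 counts in any library. The FGA call was lost when any 1 Vector-CM library was left out, and without the third APOB alone was called. DESeq2 gave no adjusted p for these 3 genes and called SERPINA1 as lower, and limma called none of the hepatocyte markers. The part of the stellate and hepatocyte markers in the collagen levels was not tested.

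Genes were compared with the quasi-likelihood test of edgeR on the counts, with p-values adjusted over 16707 genes. Of the 39 members 25 had enough counts to be tested. No member passed the adjusted threshold of 0.05, in a comparison where 0.12% of all genes tested passed (20 genes, 9 higher and 11 lower). With DESeq2, 5 of the 20 members given an adjusted p passed, all lower (COL5A1, COL6A1, COL6A2, COL4A2 and COL18A1), where 4.94% of all genes given one passed, and with limma on log2(FPKM + 1) 0 of 25 passed, where 0.00599% of all genes did. The log2 fold change of FGFBP1-CM against Vector-CM was negative for 21 of 25 members (84.0%), against 49.3% of all genes tested. Its median was -0.25 over the members and 0.00 over all genes.

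At an unadjusted p under 0.05, 12 of 25 members (48.0%) were lower in FGFBP1-CM, against 10.7% of all genes tested, and 0 were higher, against 11.1%. The 3 libraries of one group lay wholly below those of the other for 13 of 25 members (52.0%), always with FGFBP1-CM lower, against 13.2% of all genes, and 0 were wholly higher, against 12.8%. An adjusted p under 0.08 was reached by 6 of the 25 members and by 2.89% of all genes tested. The members that passed the filter on counts are described here, and the other 14 had at most 13 counts in a library. COL4A4, counted among the negative and the wholly lower members, passed that filter only through the Vector-CM libraries, where it was higher.

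**Figure D3:**
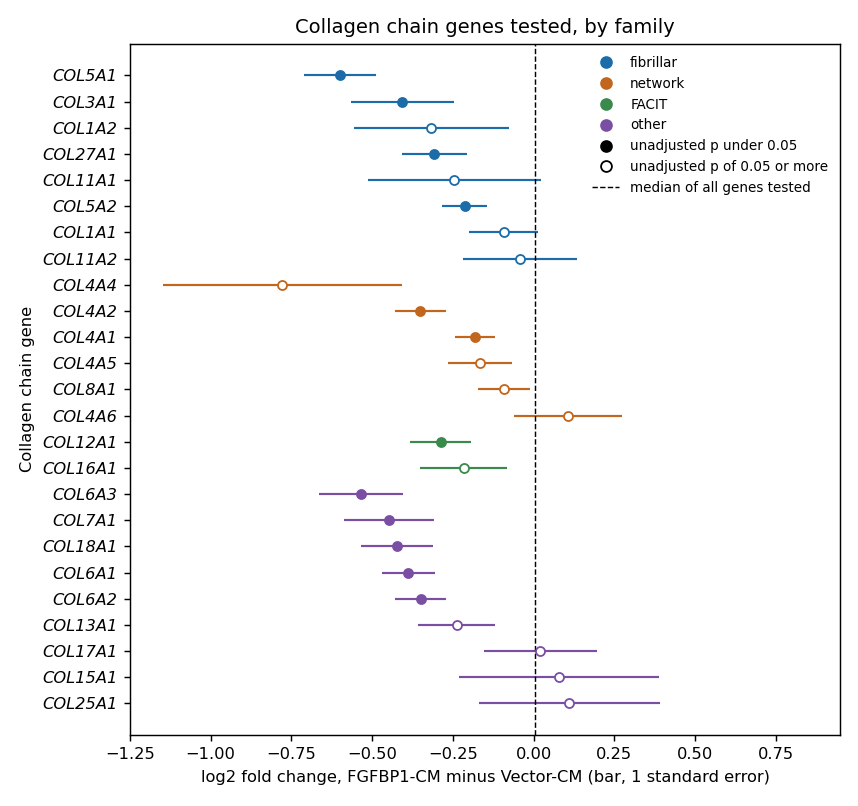
Log2 fold change of FGFBP1-CM minus Vector-CM (x axis, with a bar of 1 standard error) for the 25 collagen chain genes tested, 1 row per gene, grouped and colored by family. Filled points have an unadjusted p under 0.05, all 12 of them lie left of the median of all genes tested (dashed line), and 4 members lie to the right of 0.

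Among the fibrillar chains 8 of 11 were tested, all 8 with a negative log2 fold change and a median of -0.28. At an unadjusted p under 0.05 (edgeR), 4 were lower, against 10.7% of all genes tested. COL5A1 encodes the alpha 1 chain of type V collagen, which sits inside type I fibrils and limits their diameter. Its level was 20.99, 18.8 and 18.4 FPKM in the Vector-CM libraries and 11.3, 15.9 and 12.05 FPKM in the FGFBP1-CM libraries. All Vector-CM libraries were above all FGFBP1-CM libraries, and the second FGFBP1-CM library was nearest to them. The log2 fold change was -0.60 ± 0.111 (SE), at an edgeR adjusted p of 0.0557, the lowest adjusted p of the members.

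COL5A2, the partner chain of COL5A1, had 29.8, 31.9 and 30.7 FPKM in Vector-CM and 25.4, 28.8 and 27.2 FPKM in FGFBP1-CM. The groups were again apart, by a smaller distance, with a log2 difference of -0.21 ± 0.0695 (SE) and an edgeR adjusted p of 0.115. COL27A1, a fibrillar chain of cartilage and developing tissues, had a log2 fold change of -0.31 ± 0.1004 (SE), at an edgeR adjusted p of 0.117, with 1.30 to 1.44 FPKM against 1.05 to 1.22 FPKM.

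Type I collagen, the main fibril of scar and bone, is built from COL1A1 and COL1A2 chains. COL1A1 had 18.6, 16.3 and 15.9 FPKM in Vector-CM and 18.1, 17.8 and 12.97 FPKM in FGFBP1-CM. The groups overlapped, and the log2 fold change was -0.09 ± 0.107 (SE), at an edgeR adjusted p of 0.646. COL1A2 had 2.51, 1.78 and 2.40 FPKM in Vector-CM. In FGFBP1-CM it had 2.79, 1.61 and 1.08 FPKM, so the first library was the highest of the 6 and the third the lowest. Its log2 fold change was -0.32 ± 0.240 (SE), at an edgeR adjusted p of 0.468.

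COL3A1, which forms thin fibrils with type I collagen, had 6.56, 5.52 and 6.02 FPKM in Vector-CM and 5.87, 4.97 and 3.13 FPKM in FGFBP1-CM. The third FGFBP1-CM library was again far below the others and the groups overlapped. The log2 fold change was -0.41 ± 0.159 (SE), at an edgeR adjusted p of 0.167. COL11A1 and COL11A2, chains of cartilage fibrils, were at a mean of at most 0.494 FPKM with log2 fold changes of -0.25 and -0.04. COL2A1, COL5A3 and COL24A1 were below the filter on counts.

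Among the network chains 6 of 9 were tested, 5 with a negative log2 fold change and a median of -0.17. COL4A2 and COL4A1 encode the chains of the common basement membrane heterotrimer. COL4A2 had 27.2, 28.4 and 27.3 FPKM in Vector-CM and 20.2, 24.7 and 21.6 FPKM in FGFBP1-CM. The groups were apart, and the log2 fold change was -0.35 ± 0.0798 (SE), at an edgeR adjusted p of 0.0632. COL4A1 had 5.47, 5.60 and 5.51 FPKM in Vector-CM and 5.02, 4.87 and 5.08 FPKM in FGFBP1-CM. Its groups were narrow and apart, with a log2 difference of -0.18 ± 0.0618 (SE) and an edgeR adjusted p of 0.126.

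COL4A5, a chain of the kidney and smooth muscle type of basement membrane, overlapped between the media (4.45 to 5.08 against 3.88 to 5.11 FPKM), with a log2 difference of -0.17 ± 0.1004 (SE) and an edgeR adjusted p of 0.357. COL8A1, a short network chain made by vascular cells, had 6.90 to 7.83 FPKM against 6.57 to 7.57 FPKM, with a log2 difference of -0.09 ± 0.0805 (SE) and an edgeR adjusted p of 0.540. COL4A4 had the lowest log2 fold change of the members tested, -0.78 ± 0.370 (SE, edgeR adjusted p = 0.242), but rested on 9 to 14 counts per library in Vector-CM and 4 to 9 in FGFBP1-CM. It passed the filter on counts through the Vector-CM libraries only, where it was higher, and this selection favors a low value. COL4A6, at 0.601 FPKM, had a log2 fold change of 0.11 ± 0.167 (SE, edgeR adjusted p = 0.748).

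The FACIT chains were represented by COL12A1, which binds to type I fibrils and bears mechanical load, and by COL16A1. COL12A1 had 8.59, 8.17 and 8.38 FPKM in Vector-CM and 5.996, 8.04 and 7.03 FPKM in FGFBP1-CM. The groups were apart, although the second FGFBP1-CM library was close to the lowest Vector-CM library. The log2 fold change was -0.29 ± 0.0936 (SE), at an edgeR adjusted p of 0.115. COL16A1, found in connective tissue, had a log2 fold change of -0.22 ± 0.135 (SE, edgeR adjusted p = 0.370) at 0.879 FPKM. The other 5 FACIT members had at most 8 counts in a library.

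The 3 tested chains of type VI collagen were all lower in FGFBP1-CM. Its chains COL6A1, COL6A2 and COL6A3 form 1 heterotrimer whose microfibrils link cells to the matrix. COL6A1 had 34.6, 33.0 and 30.4 FPKM in Vector-CM and 23.0, 28.4 and 25.3 FPKM in FGFBP1-CM, with a log2 difference of -0.39 ± 0.0831 (SE) and an edgeR adjusted p of 0.0568. COL6A2 had 40.3, 41.0 and 36.6 FPKM against 29.6, 35.2 and 29.9 FPKM, with a log2 difference of -0.35 ± 0.0797 (SE) and an edgeR adjusted p of 0.0634. COL6A3 had 16.9, 18.8 and 16.3 FPKM against 10.9, 15.6 and 10.2 FPKM, with a log2 difference of -0.54 ± 0.129 (SE) and an edgeR adjusted p of 0.0680. For each of these chains the groups were apart and the second FGFBP1-CM library was the highest of its group.

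COL18A1 encodes a multiplexin of basement membranes whose end fragment is endostatin. It had 6.28, 5.38 and 5.37 FPKM in Vector-CM and 3.75, 5.16 and 4.12 FPKM in FGFBP1-CM. The groups were apart, with a log2 difference of -0.42 ± 0.111 (SE) and an edgeR adjusted p of 0.0780. Its exons share 1401 bp with those of SLC19A1 on the opposite strand, and without stated strandedness reads there could belong to either gene.

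COL7A1, the chain of the anchoring fibrils of skin, had a mean of 0.779 FPKM and a log2 fold change of -0.45 ± 0.138 (SE, edgeR adjusted p = 0.104), with its groups apart. The transmembrane chain COL13A1 overlapped between the media, with a log2 difference of -0.24 ± 0.120 (SE) and an edgeR adjusted p of 0.266. COL17A1, COL15A1 and COL25A1 had log2 fold changes of 0.02, 0.08 and 0.11, each smaller than its standard error, and COL25A1 had the highest value of the 25 members. Among the 9 other chains tested, 5 were lower at an unadjusted p under 0.05 (edgeR), against 10.7% of all genes tested. The median log2 fold change of the 9 was -0.35.

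The FGFBP1-CM libraries were not alike in these genes. For each of the 16 members with at least 1 FPKM, the log2 of its CPM over the Vector-CM mean was taken. The median was -0.45 in the first FGFBP1-CM library, -0.17 in the second and -0.39 in the third, while the Vector-CM libraries had medians of -0.05 to 0.02. The second library was the highest of its group for 13 of the 16 members. COL3A1 and COL1A2 were highest in the first library and COL4A1 in the third. The 13 members highest in the second FGFBP1-CM library thus included the tested type V and type VI chains and COL1A1, but not COL3A1 and COL1A2.

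Whether a member passed the adjusted threshold depended on the library left out. Without the second FGFBP1-CM library 7 members passed the adjusted threshold, all lower (COL5A1, COL6A1, COL6A2, COL6A3, COL4A2, COL18A1 and COL12A1), and 883 genes in all passed (5.15%). Without the first, COL5A1 and COL1A2 passed, as did 0.421% of all genes, and without the third, COL5A1 and COL6A1 passed, as did 2.34% of all genes. No member passed when any 1 Vector-CM library was left out, and of all genes 0.0351%, 0.0233% and 0.0232% passed without the first, the second and the third. Without the third FGFBP1-CM library the log2 fold change was -0.05 for COL1A2 and -0.19 for COL3A1. In every one of these fits the called members were lower in FGFBP1-CM. The members that were tested had a median GC content of 55.4%, against 47.7% of all genes tested, and across genes the log2 fold change fell with GC content (Spearman's rho -0.21, a description over genes that share the same libraries). After removal of that trend and of the trend with gene length, 1 member passed, COL5A1, against 0.287% of all genes, and the median log2 fold change of the members was -0.27.

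**Figure D4:**
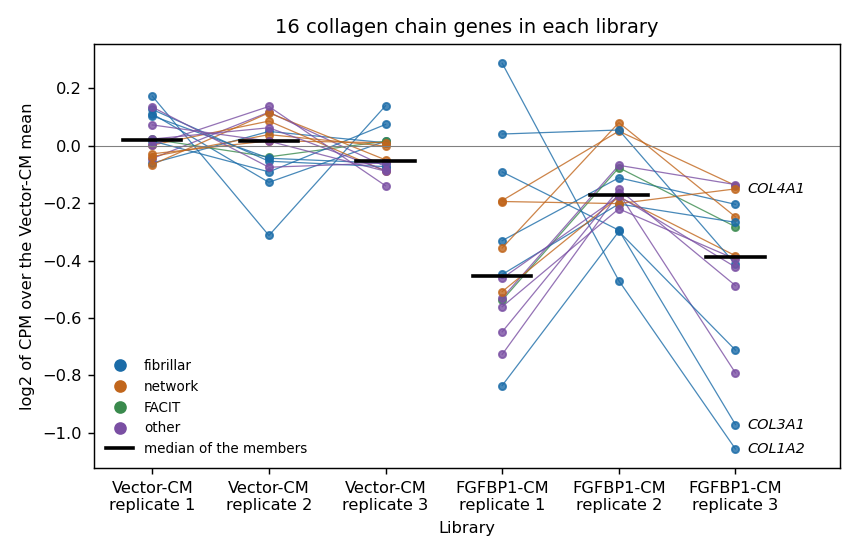
Log2 of CPM over the Vector-CM mean (y axis) for the 16 collagen chain genes with at least 1 FPKM in each of the 6 libraries (x axis), with 1 thin line per gene within a group, colored by family, and thick bars at the medians. Replicates have no order, and the lines only join the points of a gene. The medians of the FGFBP1-CM libraries are -0.45, -0.17 and -0.39, and COL1A2 and COL3A1 are the lowest genes in the third FGFBP1-CM library.

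Chains that assemble into the same molecule were compared by the ratio of their FPKM, within each library, with a two-sided exact permutation test that cannot give less than p = 0.1 with 3 against 3 libraries. COL5A1/COL5A2 was 0.705, 0.590 and 0.599 in Vector-CM and 0.443, 0.553 and 0.442 in FGFBP1-CM. The ratios were apart, and their log2 difference was -0.40 (exact p = 0.1, the smallest possible, and 0.4 when adjusted over 4 pairs). COL4A1/COL4A2 was 0.200 ± 0.00257 in Vector-CM and 0.227 ± 0.0268 in FGFBP1-CM (SD, n = 3, exact p = 0.4, adjusted 0.5).

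COL1A1/COL1A2 was 7.76 ± 1.31 in Vector-CM and 9.85 ± 2.95 in FGFBP1-CM (SD, n = 3, exact p = 0.4, adjusted 0.5). It was 6.48 in the first FGFBP1-CM library and 12.003 in the third, a wider range than in Vector-CM. COL6A1/COL6A2 was 0.832 ± 0.0277 and 0.810 ± 0.0357 (SD, n = 3, exact p = 0.5, adjusted 0.5). Its log2 difference, -0.04, was the smallest of the 4 pairs. A ratio of FPKM also depends on the gene lengths the authors used, which were the same in all libraries, and no ratio could pass the threshold in this design.

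**Figure D5:**
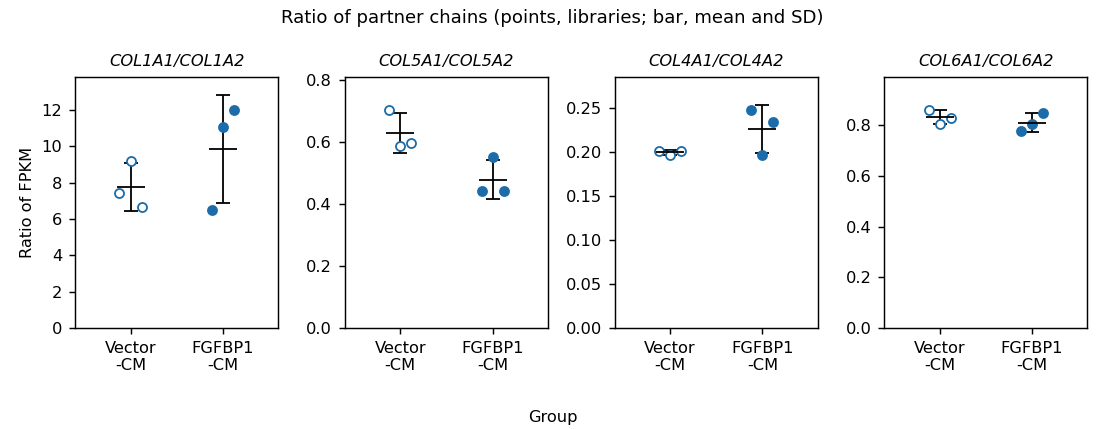
Ratio of the FPKM of partner chains (y axis, from 0) in Vector-CM (open points) and FGFBP1-CM (filled points), 1 point per library, with the mean and SD of 3 libraries. The COL5A1/COL5A2 ratios do not overlap between the media, and the other 3 ratios do.

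Several members lie next to each other in the genome. COL4A1 and COL4A2 start head to head on chromosome 13 and their spans overlap in GENCODE release 29. COL3A1 and COL5A2 lie tail to tail on chromosome 2 with 19149 bp between them, and on chromosome 21 COL6A1 and COL6A2 are 93046 bp apart on the same strand. COL4A1 and COL4A2 had log2 fold changes of -0.18 and -0.35, COL3A1 and COL5A2 of -0.41 and -0.21, and COL6A1 and COL6A2 of -0.39 and -0.35. The log2 fold changes of COL6A1 and COL6A2 differed by less than either standard error, which was not so for the other pairs.

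The stretches before the RefSeq start (GRCh38.p14) are shown for COL5A1, COL6A2 and COL18A1, and end where an annotated exon begins. These are among the 6 members with an edgeR adjusted p under 0.08. Of the rest, COL4A2 and COL6A3 had exon-free stretches of only 2 and 39 bases, and COL6A1 had no entry. Capitals mark the GC box (GGGCGG or its reverse complement CCGCCC) and the TATA box (TATAAA).
COL5A1, chr9:134641553-134641773, plus strand: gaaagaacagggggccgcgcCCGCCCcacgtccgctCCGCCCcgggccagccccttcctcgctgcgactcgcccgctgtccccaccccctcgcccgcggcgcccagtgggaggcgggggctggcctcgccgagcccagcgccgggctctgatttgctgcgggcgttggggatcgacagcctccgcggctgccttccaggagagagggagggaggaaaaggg
COL6A2, chr21:46097862-46098096, plus strand: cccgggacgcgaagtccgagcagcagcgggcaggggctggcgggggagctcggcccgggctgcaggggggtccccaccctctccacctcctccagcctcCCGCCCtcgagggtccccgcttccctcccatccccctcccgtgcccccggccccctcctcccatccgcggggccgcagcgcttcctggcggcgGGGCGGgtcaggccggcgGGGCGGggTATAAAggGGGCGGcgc
COL18A1, chr21:45404915-45405136, plus strand: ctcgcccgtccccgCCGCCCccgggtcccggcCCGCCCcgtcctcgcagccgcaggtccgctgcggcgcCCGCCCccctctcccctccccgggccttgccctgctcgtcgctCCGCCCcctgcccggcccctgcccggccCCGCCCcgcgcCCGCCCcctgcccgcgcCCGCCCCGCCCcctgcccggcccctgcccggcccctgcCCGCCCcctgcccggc
The COL5A1 stretch holds 2 GC boxes, that of COL6A2 4 and a TATA box, and that of COL18A1 9, of which a pair shares bases.

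Counted on both strands in the 250 bases before the start, a GC box was present for 17 of the 29 members with an entry (58.6%) and for 42.3% of 27305 genes. A CCAAT box (CCAAT) was present for 8 of 29 (27.6%) against 33.0% of genes, and a TATA box for 5 of 29 (17.2%) against 11.1%. The EGR1-type motif GCGNGGGCG, which can share bases with a GC box, was present for 3 of 29 (COL4A1, COL4A2 and COL11A1) against 8.25%. COL6A3, with a log2 fold change of -0.54, had none of these motifs in its window, where the exon-free stretch was only 39 bases. The windows were searched whole, also where annotated exons lie, and those of COL15A1 and COL16A1 had 0 exon-free bases. The median GC content of the windows was 65.6% for the members and 58% for all genes with an entry, and its part in the GC box shares was not tested. The windows of COL4A1 and COL4A2 share bases. A match is a string of letters and not a measured binding site.

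Collagen needs enzymes and chaperones before it can leave the cell, and 24 genes of folding, modification and export were all tested. None passed the adjusted threshold. At an unadjusted p under 0.05 (edgeR), 8 were lower and 3 higher, against 10.7% and 11.1% of all genes tested. The median log2 fold change was -0.12. P4HA2 and P4HB, subunits of the prolyl 4-hydroxylase that stabilizes the helix, had log2 fold changes of -0.27 ± 0.0606 (SE, edgeR adjusted p = 0.0632) and -0.31 ± 0.0856 (SE, edgeR adjusted p = 0.0847). COLGALT1, which adds galactose to hydroxylysine, had -0.28 and P3H1, a prolyl 3-hydroxylase, -0.22. With DESeq2, P4HA2, P4HB and COLGALT1 passed, all lower, where 4.94% of all genes given an adjusted p passed. With limma none of the 24 did.

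Of the 14 genes that trim propeptides or crosslink fibrils 10 were tested and 0 passed. At an unadjusted p under 0.05 (edgeR), 5 were lower and 0 higher, against 10.7% and 11.1% of all genes tested. The median log2 fold change was -0.26. LOX and LOXL2, oxidases that start collagen crosslinks, had log2 fold changes of -0.53 ± 0.101 (SE, edgeR adjusted p = 0.0566) and -0.35 ± 0.0749 (SE, edgeR adjusted p = 0.0568). TGM2, a transglutaminase, had -0.32, and BMP1, which removes the C-propeptide, -0.17. With DESeq2, LOX, LOXL2 and TGM2 passed, all lower, where 4.94% of all genes given an adjusted p passed. With limma none of the list did.

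Among 18 collagen-binding matrix proteins 14 were tested and 0 passed. At an unadjusted p under 0.05 (edgeR), 7 were lower and 0 higher, against 10.7% and 11.1% of all genes tested. The median log2 fold change was -0.30. FN1, on which fibrils are laid down, had 1180 ± 33.0 CPM with Vector-CM and 796 ± 179.9 CPM with FGFBP1-CM (SD over 3 libraries). Its difference was -0.57 on the log2 scale (edgeR adjusted p = 0.0568). SPARC, a collagen-binding protein, had -0.50, NID1, a linker of basement membranes, -0.35, and TGFBI -0.30. With DESeq2, SPARC, NID1 and TGFBI passed, all lower, where 4.94% of all genes given an adjusted p passed. With limma none of the list did.

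The receptors were mixed. Of 10 genes 9 were tested and 0 passed. At an unadjusted p under 0.05 (edgeR), 3 were lower and 2 higher, against 10.7% and 11.1% of all genes tested. The median log2 fold change was -0.05. ITGA2, the alpha chain of a collagen-binding integrin, had 179.6 ± 12.3 CPM with Vector-CM and 246 ± 42.6 CPM with FGFBP1-CM (SD over 3 libraries), a difference of 0.45 on the log2 scale (edgeR adjusted p = 0.0619). DDR2, a receptor tyrosine kinase for fibrillar collagen, had 0.16, while MRC2, which takes up collagen for degradation, had -0.34 and ITGB1, the beta chain of collagen-binding integrins, -0.19. With DESeq2, ITGA2 passed as higher and MRC2 as lower, where 4.94% of all genes given an adjusted p passed. With limma none of the list did.

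Of these 5 lists, the enzymes that degrade collagen and their inhibitors were the one with genes past the adjusted threshold in the edgeR test. Of 14 genes 12 were tested, and 1 rose and 2 fell at the adjusted threshold, which 0.12% of all genes tested passed. At an unadjusted p under 0.05 (edgeR), 2 were higher and 6 lower, against 11.1% and 10.7% of all genes tested. The median log2 fold change was -0.18. FAP, a serine protease of the cell surface that cleaves gelatin, rose by 4.52 on the log2 scale (edgeR adjusted p = 7.98e-07). MMP9, a gelatinase, fell by 1.01 on the log2 scale (adjusted p = 0.00195, edgeR), from 32.3 ± 3.90 to 16.1 ± 1.65 CPM (SD, n = 3). TIMP1, an inhibitor of metalloproteinases, fell by 0.38 on the log2 scale (adjusted p = 0.0465, edgeR), a call that was lost when any 1 Vector-CM library was left out. MMP1, which cleaves intact fibrillar collagen, had a log2 fold change of 0.40 ± 0.0798 (SE, edgeR adjusted p = 0.0568), with 565 to 665 CPM in Vector-CM and 729 to 849 CPM in FGFBP1-CM. With DESeq2, FAP and MMP1 passed as higher and MMP9, TIMP1, MMP2, TIMP2 and TIMP3 as lower. In that fit 4.94% of all genes given an adjusted p passed. With limma FAP alone passed, so that the calls of MMP9 and TIMP1 were lost there.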

How the data were processed

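RNA of LX-2 cells was sequenced in 6 libraries, 3 per conditioned medium, grouped by their labels. The authors aligned reads with HISAT2 (2.0.5), counted them per gene with featureCounts (1.5.0-p3) and deposited raw counts together with FPKM values, per the labels and methods. The submitters' processing notes name hg18, DESeq2 1.16.1 and edgeR, the methods speak of poly(A) capture as well as of ribosomal depletion, and annotation release and strandedness are not given in the sources used here. Columns of the authors' own comparison were not used.

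The count test was that of edgeR 4.0.16, run in R 4.3.3 (filterByExpr, TMM, quasi-likelihood test, Benjamini-Hochberg over 16707 genes, threshold 0.05). Standard errors were derived from the F statistic. Levels are the deposited FPKM or TMM-scaled CPM. Members, lists, named genes and tests were chosen with earlier results of these data known. Named members were those with an unadjusted p under 0.05 and at least 1 FPKM, the top 2 of each family, the partner chains and the extremes, and at most 4 genes per list, and further members were named to account for the families. Coordinates and coding sequences are from GENCODE release 29 and upstream sequences from RefSeq. Upstream stretches of at least 100 bases free of annotated exons were eligible. One sequence is not reported here. The total count per library sets the precision of low genes, and floors cover counting error only. Alternatives were RLE scaling, library size only, other filters, DESeq2 1.42.0, limma 3.58.1 on log2(FPKM + 1) and log2(FPKM + 0.1), a replicate block, a correction for GC content and length (loess, span 0.3), and leaving out each library. The procedure was tested on simulated data.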

Additional observations from a re-analysis of the deposited data

How the results depend on the processing

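Of 269 values of single members under the alternatives, 235 kept their direction and side of the threshold, 32 passed the threshold where they had not before, all lower in FGFBP1-CM, and 2 turned direction: COL1A1, whose log2 fold change was -0.17 to 0.0443 when each library was left out in turn (highest without the third FGFBP1-CM library), and COL25A1, whose value was -0.0634 to 0.27 (lowest without the first). The main test called 0 of 25 members and 20 of 16707 genes. RLE scaling called 1 of 25 members (38 of 16707 genes), and library size only called 0 of 25 (17 of 16707). With a mean of at least 1 CPM, 0 of 23 members passed (11 of 15027 genes). With no filter beyond 1 count, 8 of 39 passed (1382 of 38002 genes). DESeq2 called 5 of the 20 members given an adjusted p (585 of 11848 genes). Limma called 0 of 25 at a pseudocount of either 1 or 0.1 FPKM (1 of 16707 genes each). The GC and length correction called 1 of 25 (48 of 16707 genes). An unadjusted p under 0.05 was reached by 12 of 25 members in the main test (3630 of 16707 genes). When each library was left out in turn, 0 to 7 of 25 members and 4 to 883 genes (0.0232% to 5.15%) passed. Without the filter on counts the prior degrees of freedom were infinite, against 9.32. The median log2 fold change of the members was -0.14 with limma on log2(FPKM + 1), where the pseudocount shrinks low genes, and -0.17 to -0.33 otherwise. Shares of summed counts in place of FPKM were 28.2% for fibrillar, 31.0% for network, 6.97% for FACIT and 33.8% for other chains, because counts are not divided by gene length.

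The labels name no pairing of same-numbered libraries, and the main test treated them as unpaired. Deviations of same-numbered libraries from their group means correlated at -0.12, -0.02 and 0.15 over 15033 genes. With 3 libraries a group such values cannot settle whether the libraries were paired. With a replicate block 3 of 25 members (COL4A2, COL5A1 and COL6A3) and 90 of 16707 genes passed. With the GC and length correction as well, 3 of 25 members and 88 of 16707 genes passed. COL5A1 passed in 9 of 16 alternatives, COL4A2 in 5, COL6A1 and COL6A3 in 4, and COL6A2 and COL18A1 in 3. With 3 libraries a group, small changes of members with few counts were not detectable at this depth.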
